A study of Mus musculus with 79 samples.

Results

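The Schwann cell fraction that was sorted from the nerve bridge after immediate repair was followed from day 5 to day 14. Its libraries were chosen by their labels alone, and are 15 of the 31 Schwann cell libraries and of the 79 libraries of the series, with 7 animals on day 5 and 8 other animals on day 14. The study joined the freshly cut common peroneal nerve of mice to the tibial nerve, either at once or after 8 weeks of denervation, and collected the tissue that had grown through a silicone conduit between the stumps. All animals carried the S100β-eGFP transgene, in which the human S100β promoter drives enhanced GFP, and all animals of the immediate group had a sham incision of skin and muscle 8 weeks before the nerve surgery. RNA of 1000 sorted cells per animal, without pooling of animals, was amplified as cDNA and sequenced. The gate kept viable cells that were positive for GFP and negative for the macrophage proteins F4/80, CD14, CD16/32 and CD11b and for markers of granulocytes, B cells, T cells, fibroblasts, endothelial cells and red cells. The day 5 group held 4 males and 3 females and the day 14 group 4 males and 4 females, and their ages are not given in the sources used here. The comparison asks how the RNA of this fraction changed while the bridge matured after a repair without delay.

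Schwann cells are the glia of peripheral nerve. After a cut they shed myelin, return to a non-myelinating repair state that secretes growth factors and matrix, and line up as tracks along which axons regrow, before those in contact with axons are wrapped in basal lamina and myelinate again. The transcription factor Sox10 holds their identity, and Ngfr, Gap43 and Gfap are known as genes of the immature and repair states. Inflammatory cells enter the bridge in the same weeks, and NF-kB, a family of transcription factors that dimerize and bind so-called kB sites, drives much of the cytokine expression of activated leukocytes and is held back by feedback inhibitors such as Tnfaip3 and Nfkbid.

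The label was checked against marker lists, whose summed levels are given in CPM, which are counts scaled to the library total, for the lowest, the median and the highest library. The 10 Schwann cell markers summed to 75.0, 477.3 and 868.2 CPM on day 5 and to 349.0, 665.8 and 1078 CPM on day 14, against at most 4.63 CPM in macrophage libraries of the immediate group, and none of the 10 was at 0 in all libraries of a day. The 20 dendritic cell markers summed to 39192, 50758 and 62870 CPM on day 5 and to 33978, 46889 and 58100 CPM on day 14, against medians of 4433 CPM on day 5 and 13962 CPM on day 14 in macrophages. Dendritic cells are antigen-presenting leukocytes, and their markers thus outweighed the Schwann cell markers in each of the 15 libraries. S100b, whose human promoter drives the GFP of the sort, was at medians of only 12.7 CPM on day 5 and 7.81 CPM on day 14, while the Schwann cell factor Sox10 was at 72.4 and 130.1 CPM. The data therefore go against reading these libraries as Schwann cells alone, and the samples are called the sorted fraction below. In such bulk samples a change in the share of cells of a type and a change in the RNA of each cell cannot be told apart.

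**Figure D1:**
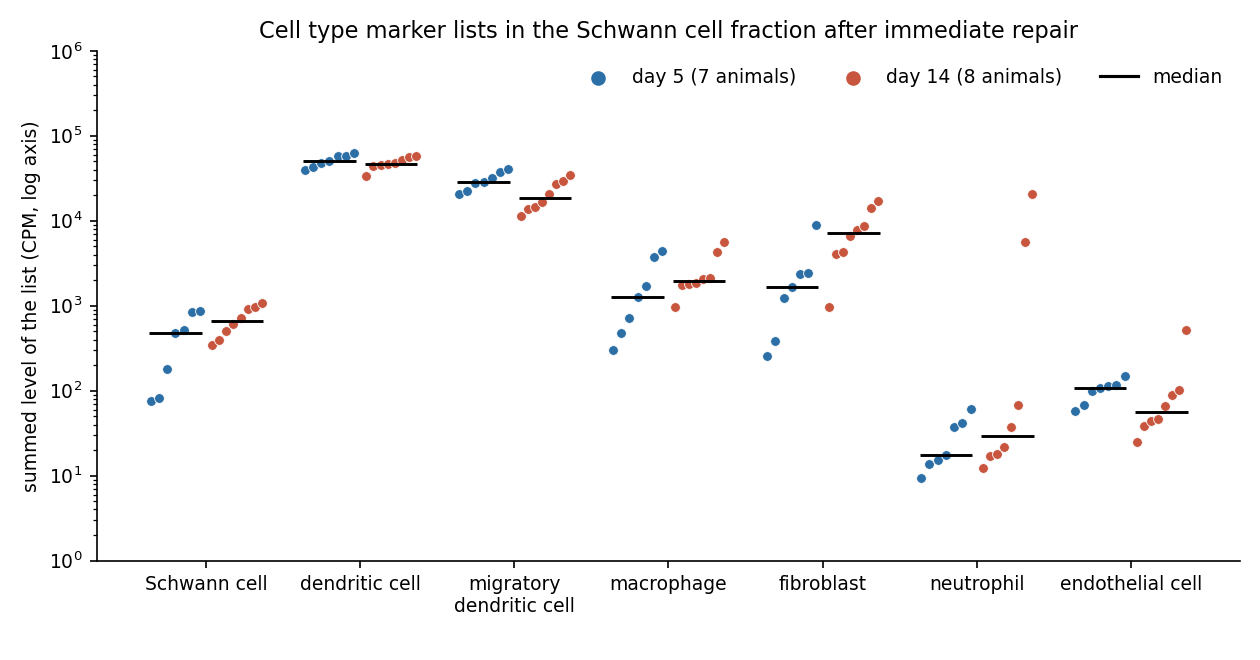
Summed level of 7 marker lists in each library of the sorted fraction (CPM, log axis), with day 5 in blue (7 animals), day 14 in red (8 animals) and the median as a line. Dendritic cell markers lie near 50758 CPM on day 5, Schwann cell markers reach at most 1078 CPM, fibroblast markers have medians of 1660 CPM on day 5 and 7187 CPM on day 14, and 2 libraries of day 14 stand apart in neutrophil markers.

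Several libraries stood apart. The day 5 libraries with replicate numbers 2, 3 and 4, all from males, had the lowest Schwann cell sums (81.3, 75.0 and 182.2 CPM) and fibroblast sums of 388.9, 252.6 and 1660 CPM, the last the median of the day, while the other male, replicate 1, had the highest Schwann cell sum of the day (868.2 CPM). On day 14 the neutrophil marker sum was 20547 CPM in replicate 3 and 5682 CPM in replicate 5, against at most 67.1 CPM in the others, and replicate 2 had a B cell and plasma cell sum of 1425 CPM, against at most 261.8 CPM in the others. Replicate 8 of day 14 had the highest sums of endothelial (512.1 CPM), mural cell (535.7 CPM) and skeletal muscle markers (498.7 CPM) of all 15 libraries. Total counts were 19957731 to 30322482 on day 5 and 14400772 to 23940126 on day 14, and the mean fell by 5114606 counts from day 5 to day 14 (exact two-sided permutation test, p = 0.0171, 7 against 8 libraries). Fewer genes reached 5 CPM on day 5 (7610 to 9751) than on day 14 (8733 to 10327), with overlap between the days. No 2 of the libraries held the same counts.

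Between day 5 and day 14 more genes were called lower than higher in the sorted fraction. The process lists with the largest shares of called genes were collagens among the higher genes (7 of 21) and cytokines and receptors of antigen-presenting cells (5 of 26) and the dissociation and immediate early list (7 of 42) among the lower genes, and most of the 310 lower genes belong to none of these lists. Of 10016 genes tested, 382 passed an adjusted p of 0.05 in edgeR's quasi-likelihood test (3.81%) and are said to have been called. Of these, 72 were higher (0.719%) and 310 lower (3.10%) on day 14, with median log2 fold changes of 1.20 and -1.18, and 1859 genes (18.6%) lay below an unadjusted p of 0.05. The common biological coefficient of variation between animals was 0.681, against 0.590 for the same course after delayed repair and 0.287 in macrophages. Changes of at least 4-fold were found among 23 of the higher and 11 of the lower genes. The days did not overlap at all for 49 genes with every day 14 library above (0.489%) and for 83 with every day 14 library below (0.829%), and 30 of the 72 and 81 of the 310 called genes were among them. With scaling by the library total alone the split became 150 higher and 200 lower, the median log2 fold change of all genes tested moved from 0.04 to 0.22. The longest annotated transcripts of the lower genes had a median of 4694 bases, those of the higher genes 2852 bases and those of all genes tested 3459 bases, and the part of transcript length in the result was not tested.

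**Figure D2:**
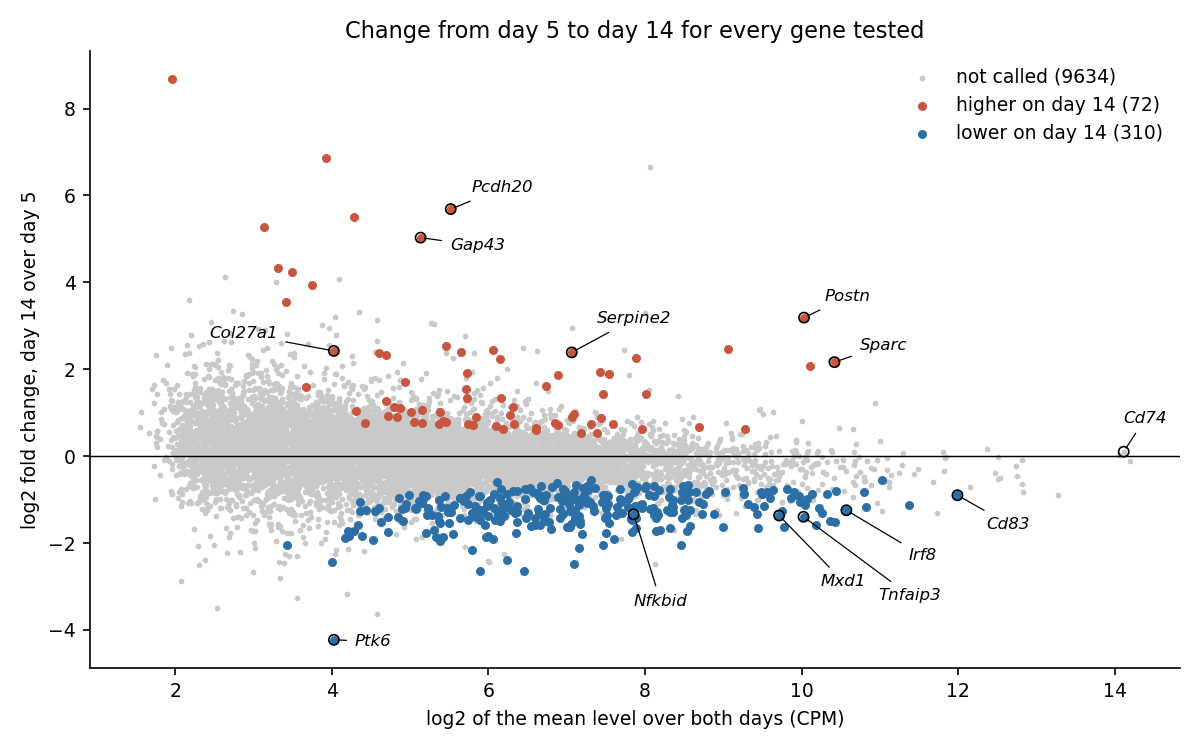
Log2 fold change from day 5 to day 14 against the log2 of the mean level over both days (CPM) for the 10016 genes tested, with the 72 higher genes in red, the 310 lower genes in blue, the others in grey and some genes of the text circled. Higher genes such as Gap43 and Pcdh20 lie at low to medium levels with large fold changes, while the lower genes lie as a band around -1.18 up to the most abundant genes, and the dendritic cell gene Cd74 stays near 0.

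A few Schwann cell genes were called higher. Levels of single genes are given below in CPM after TMM scaling as the lowest, the median and the highest library of a day, and changes as log2 fold changes of day 14 over day 5 with their standard error. Gap43, a growth-associated protein of repair Schwann cells and regrowing axons (chr16:42248442-42340651, GRCm38), was at 0, 1.12 and 6.87 CPM on day 5 and at 5.97, 47.6 and 173 CPM on day 14. Only the lowest library of day 14 lay within the day 5 range, and the change was 5.03 ± 0.94 (SE, adjusted p = 0.00921). Art3, an ADP-ribosyltransferase family member found in Schwann cells (chr5:92331827-92414628), rose from 1.67, 6.87 and 15.1 to 25.4, 35.2 and 80.3 CPM without overlap. The log2 fold change was 2.37 ± 0.38 (SE, adjusted p = 0.00409). Matn2, the matrix protein matrilin-2 that Schwann cells secrete, rose from 29.1, 74.1 and 182 to 85, 245 and 554 CPM with overlapping days. Its log2 fold change was 1.90 ± 0.45 (SE, adjusted p = 0.0263). Its call was lost in 6 of the 15 fits that each left out 1 library (day 5 replicates 2, 3 and 4 and day 14 replicates 4, 7 and 8), with values of 1.70 to 2.25, whereas Gap43 and Art3 were called in all 15.

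Art3 and Matn2 were the only called genes of the 22 tested in the Schwann cell identity list, whose median log2 fold change was 0.76 against 0.04 over all genes tested, and Gap43 was the only one of 21 in the repair Schwann cell list, with a median of -0.03. The share called higher over all genes tested was 0.719%. Of the core markers, Sox10 was at 20.3, 66.2 and 165 CPM on day 5 and 51.2, 121 and 191 CPM on day 14. The days overlapped widely and Sox10 was not called (adjusted p = 0.483). S100b was at 0.706, 15.7 and 25.3 and 0.815, 6.94 and 16.4 CPM, again with overlap. None of 15 myelin genes, 18 myelin regulators, 16 neurotrophic factors and receptors and 20 cholesterol synthesis genes was called, and their medians were 0.37, 0.06, -0.28 and -0.50. Without day 5 replicates 2, 3 and 4 the identity list had a median of 0.20 and the myelin list of -0.01, and the fitted log2 fold change of Sox10 was 0.03 in place of 0.66. The part of the low Schwann cell content of these 3 libraries in the rises of this and the next 2 paragraphs was not tested further.

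Collagens had the highest share of rises of any list. They are the structural proteins of the endoneurial and scar matrix, and 7 of the 21 tested were called higher (Col27a1, Col5a1, Col12a1, Col16a1, Col5a2, Col20a1 and Col1a2) and none lower, with a median log2 fold change of 1.94 and all 21 above 0. Over all genes tested 0.719% were called higher. Col27a1, a fibrillar collagen of low abundance (chr4:63214004-63334991), was at 2.17, 5.34 and 8.99 CPM on day 5 and 11.9, 30.6 and 38.5 CPM on day 14. The days did not overlap, and the change of 2.42 ± 0.38 (SE, adjusted p = 0.00358) was among the smallest p of the rises. Col12a1, a collagen that bridges fibrils, rose from 0, 0.913 and 3.41 to 9.59, 22 and 36.3 CPM without overlap. The change was 4.25 ± 0.99 (SE, adjusted p = 0.0254). Col5a1, a regulator of fibril assembly, changed by 1.94 ± 0.44 (SE, adjusted p = 0.0229) and lost its call without day 5 replicate 3 (values of 1.77 to 2.30 over the 15 fits). Col1a2, a chain of the main interstitial collagen, went from a median of 268 to 1618 CPM, 2.09 (adjusted p = 0.0471), but was called in only 3 of the 15 fits. Col16a1 and Col5a2 were called in 12 and 7 of them, and Col20a1 in 4 of the 9 in which it was tested. Fibroblast markers moved in the same direction, with medians of 1660 CPM on day 5 and 7187 CPM on day 14 over the 13 markers and wide overlap (252.6 to 9011 against 957.6 to 17270 CPM), and their part in the rise of matrix genes was not tested.

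Matrix-organising genes followed. Sparc, a collagen-binding glycoprotein made by Schwann cells and fibroblasts (chr11:55394500-55423183), rose from 109.8, 395 and 1173 to 1409, 1830.0 and 3698 CPM. Every day 14 library exceeded every day 5 library, and the change was 2.16 ± 0.42 (SE, adjusted p = 0.011). Postn, or periostin, an adhesive matrix protein, rose from 2.95, 231 and 379 to 860.3, 1082 and 4515 CPM without overlap. Its change was 3.19 ± 0.71 (SE, adjusted p = 0.0214). It lost its call without day 5 replicate 2 (2.87 to 3.40 over the fits). Serpine2, protease nexin-1, an inhibitor of thrombin made by glia (chr1:79794197-79861180), rose from 8.43, 35.5 and 98.6 to 144, 197 and 349 CPM without overlap. The fitted change was 2.39 ± 0.47 (SE, adjusted p = 0.012). Of 32 matricellular genes 3 were called, all higher (Sparc, Postn and Tnc, the last in only 3 of the 15 fits), and Serpine2 was the only one of 26 matrix proteases and inhibitors. The share called higher over all genes tested was 0.719%. None of 20 basal lamina genes and their receptors was called, and their median was 0.48. Without day 5 replicates 2, 3 and 4 the fitted changes of Sparc, Postn and Serpine2 were 1.65, 2.56 and 1.85 and were no longer called, those of Col27a1 (2.15) and Art3 still were, and the collagen list kept a median of 1.42.

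The other rises described here were named for their p or fold change or as members of a list. Pcdh20, a protocadherin, was at 0, 0.0338 and 7.42 CPM on day 5 and at 27.9, 68.7 and 289.7 CPM on day 14, without overlap and with a change of 5.69 ± 1.28 (SE, adjusted p = 0.0222). Ptn, pleiotrophin, a growth factor that binds heparan sulfate and promotes neurite outgrowth, rose from 0, 1.21 and 3.76 to 5.83, 28 and 43 CPM. Its fitted change was 3.94 ± 1.01 (SE, adjusted p = 0.036). Ptprz1, a receptor phosphatase that binds it, changed by 5.51 ± 1.33 (SE, adjusted p = 0.0291). Sema4f, a transmembrane semaphorin expressed by Schwann cells, rose from 0.242, 16 and 28.9 to 32.4, 67.7 and 198 CPM. The log2 fold change was 2.41 ± 0.59 (SE, adjusted p = 0.0318). The days did not overlap for Ptn and Sema4f and overlapped in part for Ptprz1, and the calls of Ptn, Sema4f and Ptprz1 were lost in 7, 6 and 4 of the 15 fits. Ppic, a secretory pathway cyclophilin, rose from 7.2, 19.1 and 47.8 to 76.3, 106 and 184 CPM without overlap. Its log2 fold change was 2.22 ± 0.35 (SE, adjusted p = 0.00358). It was called in all 15 fits.

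**Figure D3:**
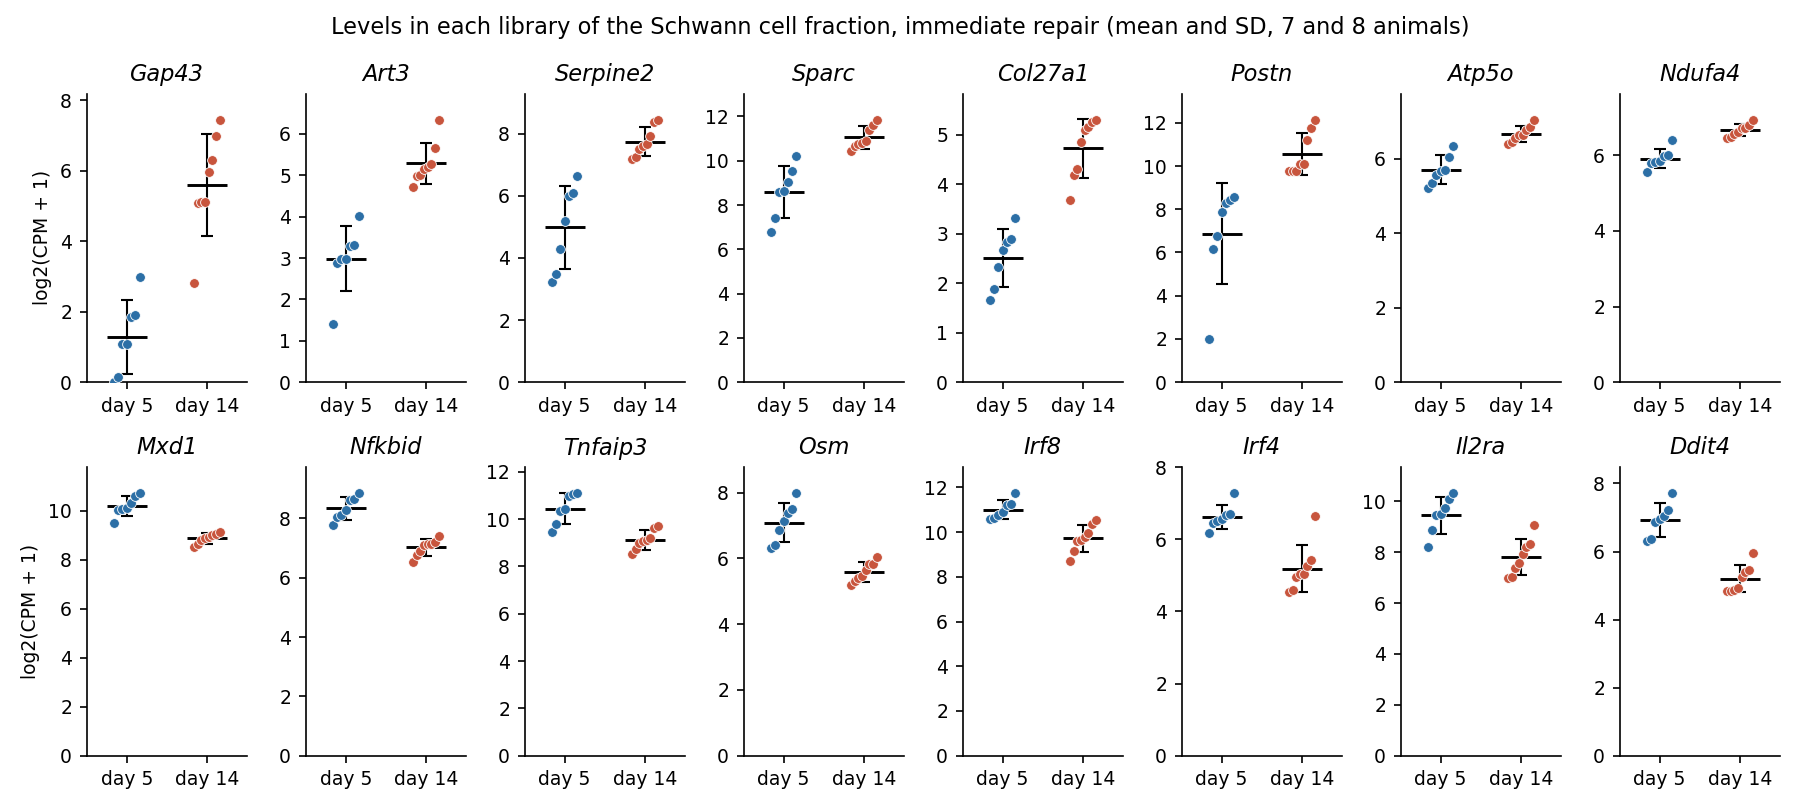
Level of 16 genes in each library of the sorted fraction, as log2(CPM + 1), on day 5 (blue, 7 animals) and day 14 (red, 8 animals), with the mean as a line and the SD as bars. The upper row shows genes that rose, of which Gap43 has 1 low library on day 14 and Postn 1 low library on day 5, and the lower row genes that fell, of which Mxd1, Nfkbid, Osm, Irf8 and Ddit4 do not overlap between the days.

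Of 41 genes of oxidative phosphorylation, the mitochondrial chain that makes ATP, 4 were called higher (Atp5o, Ndufa4, Cycs and Atp5g3, the last in 6 of the 15 fits), none lower, against 0.719% of all genes tested called higher, and 40 of the 41 had a log2 fold change above 0, with a median of 0.29. Atp5o, a subunit of ATP synthase, was at 36.1, 50.5 and 80.8 CPM on day 5 and 83, 98.8 and 132 CPM on day 14. The days were separate, and the change was 0.95 ± 0.18 (SE, adjusted p = 0.0107). Ndufa4, a subunit of the respiratory chain, rose from 46.2, 56.2 and 83.1 to 86.7, 100.3 and 122 CPM, also without overlap. The change was 0.75 ± 0.15 (SE, adjusted p = 0.0114). Cycs, cytochrome c, changed by 0.62 ± 0.14 (SE, adjusted p = 0.0209). The 50 ribosomal protein genes tested had a median of 0.06 with none called, and the 46 cell cycle genes one of 0.64 with none called.

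The gene with the smallest p of all was Mxd1 (chr6:86647042-86669161), a partner of Max that opposes Myc, which was at 726, 1105 and 1671 CPM on day 5 and 361, 478 and 555 CPM on day 14. Every day 14 library lay below every day 5 library, and the change was -1.37 ± 0.17 (SE, adjusted p = 0.00239). Nfkbid, a nuclear IkB protein that modulates NF-kB (chr7:30421732-30428746), fell from 218, 311 and 459.8 to 91.2, 137 and 170.2 CPM without overlap. Its change was -1.34 ± 0.18 (SE, adjusted p = 0.00239). Traf3, an adaptor that restrains the non-canonical NF-kB pathway (chr12:111166370-111267153), fell from 109, 146 and 242 to 32, 57.5 and 74.5 CPM without overlap. The fitted change was -1.51 ± 0.22 (SE, adjusted p = 0.00354). Tnfaip3, which encodes A20, a deubiquitinase that shuts off NF-kB signaling (chr10:19000910-19015657), fell from 699, 1359 and 2186 to 364, 544 and 826 CPM, with a small overlap of the days. Its fitted change was -1.40 ± 0.26 (SE, adjusted p = 0.00887). Nfkbiz, another nuclear IkB protein, changed by -1.06 ± 0.19 (SE, adjusted p = 0.00863). These 5 genes were called in all 15 fits that each left out 1 library.

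Promoter sequence is shown for 4 of these genes, picked after their values were seen because they fell together and hold a match to the kB consensus GGGNNNTTCC, on either strand, within the 250 bases before a RefSeq start (GRCm38.p6). Capitals mark the matched letters, and each run is given on the strand of the gene. The whole window is printed for Mxd1 (chr6:86669160-86669409, minus strand) and Traf3 (chr12:111166120-111166369, plus strand), where the matches begin 109 and 10 bases before the start. For Nfkbid (chr7:30422215-30422244, plus strand, 181 bases before the start) and Tnfaip3 (chr10:19015411-19015432, minus strand, 12 bases before the start) only the match and up to 10 bases on each side are shown, as these starts lie inside the gene as annotated. Tnfaip3 holds another match before a further start, at chr10:19012034-19012063, which is not printed.
Mxd1: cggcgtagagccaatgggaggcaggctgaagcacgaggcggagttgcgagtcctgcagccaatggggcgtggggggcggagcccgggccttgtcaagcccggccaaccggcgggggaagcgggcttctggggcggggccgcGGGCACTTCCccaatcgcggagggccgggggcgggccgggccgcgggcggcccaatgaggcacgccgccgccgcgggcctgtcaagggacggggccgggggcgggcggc
Traf3: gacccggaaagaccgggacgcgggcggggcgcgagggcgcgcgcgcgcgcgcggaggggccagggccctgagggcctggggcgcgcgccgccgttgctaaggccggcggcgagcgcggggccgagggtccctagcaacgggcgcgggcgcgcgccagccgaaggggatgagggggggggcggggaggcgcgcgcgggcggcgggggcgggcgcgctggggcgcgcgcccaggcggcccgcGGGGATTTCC
Nfkbid: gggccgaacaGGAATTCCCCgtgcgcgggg
Tnfaip3: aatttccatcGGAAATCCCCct
A match was found for 22 of the 239 lower genes with a promoter in the table (9.21%), for 1 of the 53 higher genes (1.89%), for 6.07% of the genes tested and for 5.31% of all genes of the table. The letters TGANTCA, the AP-1 consensus, which reads nearly the same on both strands and does not share letters with the kB matches shown, were found for 6.28%, 1.89%, 5.56% and 7.82%. The other motifs searched on both strands were the E-box CACGTG (12.6% of lower and 10.2% of tested genes), the interferon response element GAAANNGAAA (3.35% and 3.46%) and the CRE TGACGTCA (2.93% and 3.13%), and no other capitals were set for them. A gene counted if any of its promoters held a match. The 239 lower genes had 337 promoters, the 53 higher genes 65 and the 7566 tested genes 9699. The shares were not adjusted for the number of promoters per gene. A match is a description of letters and says nothing of binding.

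A minority of cytokine genes fell. Of 26 cytokines and receptors of antigen-presenting cells 5 were called lower (Cxcl16, Il7r, Tnfsf9, Il2ra and Il21r) and none higher, with a median log2 fold change of -0.75, and Il21r was called in 5 of the 15 fits. Over all genes tested 3.10% were called lower. Cxcl16, a membrane-bound chemokine, fell from 1151, 1289 and 2597 to 546, 673 and 1224 CPM, with 1 day 14 library within the day 5 range. The log2 fold change was -1.19 ± 0.22 (SE, adjusted p = 0.00863). Il2ra, the high-affinity IL-2 receptor chain that activated dendritic cells and T cells carry, fell from 292, 718 and 1276 to 127, 218 and 530.1 CPM, with overlap. Its log2 fold change was -1.62 ± 0.34 (SE, adjusted p = 0.0161). Osm, oncostatin M, a cytokine of the IL-6 family (chr11:4236420-4241026), fell from 79.4, 140.2 and 251 to 35.2, 46.1 and 65.3 CPM without overlap. The change was -1.59 ± 0.24 (SE, adjusted p = 0.00354). Ccl3, a chemokine of monocytes and lymphocytes, fell from 73.4, 225 and 684 to 37.8, 62.1 and 103 CPM, with a partial overlap. Its change was -2.06 ± 0.42 (SE, adjusted p = 0.0151). Osm, Ccl3 and Tnfaip3 were the called genes among the 44 tested of the inflammatory response list, whose median was -0.21, and 1 of 49 interferon response genes was called (Ifih1, an RNA sensor, -1.21, not called without day 5 replicate 2 or day 14 replicate 8). Both counts stand beside the same 3.10% of all genes tested.

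Among dendritic cell markers 4 of 20 were called lower (Irf8, Irf4, Cd83 and Zbtb46) and none higher, with a median log2 fold change of -0.30 and with 6 markers above and 14 below 0. Over all genes tested 3.10% were called lower and 0.719% higher, and these shares also stand beside the smaller lists of this paragraph. Irf8, a transcription factor needed for type 1 dendritic cells (chr8:120736358-120756694), was at 1521, 1906 and 3417 CPM on day 5 and 415, 831 and 1495 CPM on day 14. All 8 day 14 libraries lay below the day 5 minimum, and the change was -1.25 ± 0.26 (SE, adjusted p = 0.0159). Irf4, a factor of type 2 dendritic cells, fell from 71.5, 93.5 and 154 to 22.1, 32 and 98.6 CPM, with 1 high day 14 library inside the day 5 range. The fitted change was -1.33 ± 0.29 (SE, adjusted p = 0.0201). Spib, a factor of plasmacytoid dendritic cells that was singled out after its values were seen, fell from 126, 159 and 319 to 56.8, 67.5 and 98.4 CPM without overlap. Its fitted change was -1.43 ± 0.22 (SE, adjusted p = 0.00354). Cd83, a surface protein of mature dendritic cells, fell from 2926, 4869 and 7832 to 2072, 2651 and 4456 CPM, with overlap. The log2 fold change was -0.90 ± 0.22 (SE, adjusted p = 0.0298). It lost its call in 3 of the 15 fits (without day 14 replicate 1, 2 or 7). Spib was the 1 called of 13 plasmacytoid dendritic cell markers, of which 12 lay below 0, with a median of -0.89. Zbtb46 was called in 9 of the 15 fits. The list of type 1 dendritic cell markers had 1 of 13 called lower (Irf8), 11 above 0 and a median of 0.48. Xcr1, a chemokine receptor of that type, was at a median of 10.8 CPM on day 5 and 27.4 CPM on day 14 and was not called (0.76 (adjusted p = 0.598)). The list of type 2 markers had 2 of 11 called lower (Irf4 and Tnfsf9), 5 above 0 and a median of -0.09. Of the 20 markers of migratory dendritic cells, 2 were called (Cd83 and Cd200, the latter in 7 of the 15 fits) and 19 had values below 0, with a median of -0.78. Cd74, the invariant chain that escorts MHC class II molecules, was at 12215, 16214 and 23782 CPM on day 5 and 14076, 18317 and 23895 CPM on day 14, with a log2 fold change of 0.10 ± 0.19 (SE, adjusted p = 0.836), and none of 32 antigen presentation genes was called in either direction.

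The dissociation and immediate early list holds genes that respond within minutes to signaling or to tissue dissociation, and 7 of its 42 tested genes were called lower (Nr4a3, Nfkbiz, Klf6, Mcl1, Zfp36, Ppp1r15a and Dusp5) and none higher, with a median of -0.30. Over all genes tested 3.10% were called lower. Zfp36 and Ppp1r15a were called in all 15 fits and Dusp5 in 6 of them. Nr4a3, an orphan nuclear receptor, fell from 41.8, 104 and 173 to 17.1, 24.3 and 43.8 CPM, with the highest day 14 library just inside the day 5 range. Its log2 fold change was -1.83 ± 0.32 (SE, adjusted p = 0.00659). Klf6, a zinc finger factor, changed by -1.17 ± 0.22 (SE, adjusted p = 0.00978) without overlap. Ddit4, an inhibitor of mTOR induced by hypoxia and glucocorticoids (chr10:59949669-59951834), fell from 77.5, 124 and 209 to 27.7, 33.2 and 61 CPM without overlap. The change was -1.78 ± 0.24 (SE, adjusted p = 0.00239). Pfkfb3, an activator of glycolysis, changed by -1.32 ± 0.21 (SE, adjusted p = 0.00402). Ddit4, Pfkfb3 and Ndrg1, the last called in 4 of the 15 fits, were the 3 genes called lower among 38 hypoxia and glycolysis genes, which had a median of -0.07 and 1 gene called higher (Higd1a, called in 3 of the 15 fits). These counts and those of the next list stand beside 3.10% of all genes tested called lower and 0.719% called higher. The metallothioneins Mt1 and Mt2, which bind zinc and copper, were the 2 genes called lower among 29 NRF2 and heme genes. The 2 called higher were Taldo1 and G6pdx, enzymes of the pentose phosphate pathway, with log2 fold changes of 0.68 (adjusted p = 0.0291) and 0.97 (adjusted p = 0.0357). Their calls were kept in 9 and 6 of the 15 fits, and the median of the list was 0.34. Mt1 was at 405, 1341 and 2303 CPM on day 5 and 276, 381 and 736 CPM on day 14, a change of -1.63 ± 0.34 (SE, adjusted p = 0.0151) with overlap, and Mt2 changed by -1.91 ± 0.37 (SE, adjusted p = 0.0112).

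Of 28 axon guidance genes 4 were called lower (Plxnd1, Plxnc1, Sema4c and Sema7a) and 1 higher (Sema4f), with a median of -0.02, against the 3.10% and 0.719% of all genes tested. Plxnd1, a receptor for class 3 semaphorins, fell from 87.6, 127 and 258 to 18.6, 47.2 and 87.7 CPM, with 1 day 14 library just inside the day 5 range. Its change was -1.43 ± 0.32 (SE, adjusted p = 0.0206). It was called in all 15 fits. Plxnc1, Sema4c and Sema7a were called in 11, 10 and 8 of them. Eng, endoglin, a co-receptor for TGF-beta ligands, fell from 30.1, 49.5 and 179 to 11.8, 19.3 and 23.1 CPM without overlap. The fitted change was -1.87 ± 0.33 (SE, adjusted p = 0.00771). Eng and the chemokine receptor Cxcr4 (-1.37 (adjusted p = 0.00863)) were the 2 called of 26 angiogenesis genes, both lower, beside the 3.10% of all genes tested called lower. Hopx, a homeodomain-only protein, fell from 42.4, 64 and 84.5 to 12.9, 16.6 and 31.1 CPM without overlap. Its fitted change was -1.85 ± 0.23 (SE, adjusted p = 0.00239). The largest fitted fall among genes with a mean of at least 20 CPM was that of Ptk6, a cytoplasmic tyrosine kinase, from 7.54, 31.5 and 78.1 to 0, 1.12 and 4.88 CPM, by -4.23 ± 0.95 (SE, adjusted p = 0.0215). Its days did not overlap either.

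**Figure D4:**
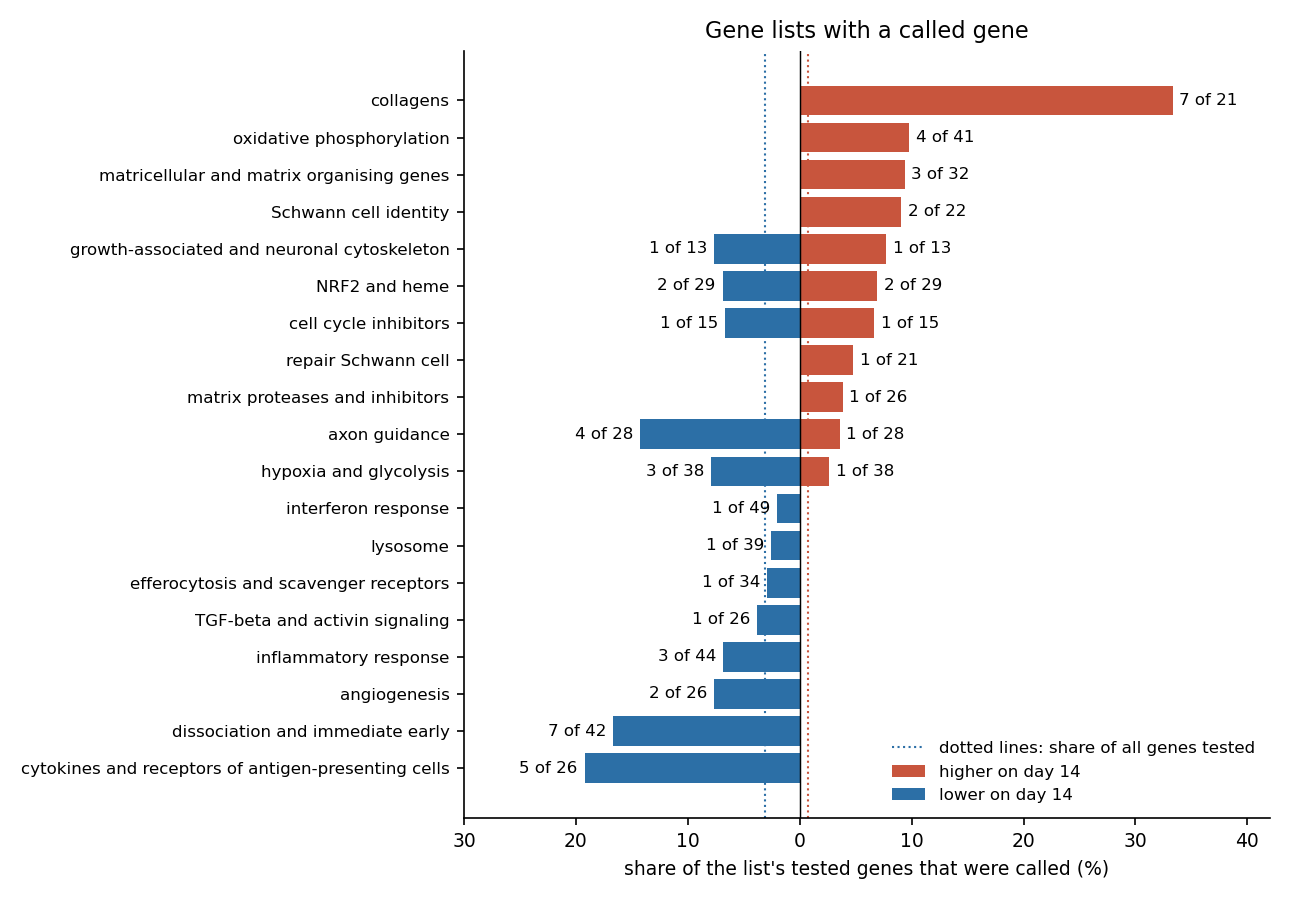
Share of the tested genes of each list that were called higher (red, to the right) or lower (blue, to the left) on day 14, with counts beside the bars and the shares of all genes tested (0.719% and 3.10%) as dotted lines. Only the 19 process lists with a called gene are drawn, and collagens reach furthest to the right, at 7 of 21, and the cytokine list furthest to the left, at 5 of 26.

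The number of calls varied with the libraries in the fit. Without day 5 replicates 2, 3 and 4, a setting chosen after seeing the data that leaves 4 day 5 libraries of 1 male and 3 females, 42 genes were called (10 higher and 32 lower). The genes called with all libraries had medians of 1.08 and -0.88 there, and their direction is largely fixed by their choice on the same libraries. Mxd1, Hopx, Nfkbid, Ddit4, Traf3, Osm and Eng were still called there, and Tnfaip3 (-0.90), Irf8 (-0.91), Cxcl16 (-0.78) and Gap43 (4.65) were not. Without the 2 day 14 libraries high in neutrophil markers 331 genes were called. Among males alone 195 genes were called and among females alone 0 by edgeR (739 at an unadjusted p under 0.05, 0 by limma-voom and 113 by DESeq2). The called genes that could be tested kept their direction in each sex, which their choice on the same animals largely fixes, with medians of 1.08 and -1.27 in males and 0.93 and -0.85 in females. The difference of the day effect between females and males passed the threshold for 0 of 10016 genes (0%), with 572 at an unadjusted p under 0.05 (5.71%) and 14 by DESeq2, and edgeR called up to 32 when 1 library was left out (without day 5 replicate 2).

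The same course was read in the sorted fraction after delayed repair, from 9 animals on day 5 and 7 on day 14 that are not among those above. There 806 of 9961 genes were called (8.09%), 333 higher (3.34%) and 473 lower (4.75%). Of the 382 genes called after immediate repair 196 were called there as well (51.3% of the first list and 24.3% of the second), 32 of them higher and 164 lower in both. Over the genes tested in both, 73.1% had the same sign, and 70 of 71 higher and 307 of 310 lower genes did, with medians of 0.71 and -0.82. Mxd1 changed by -1.26 ± 0.27 (SE, adjusted p = 0.0148) after delayed repair, Osm by -1.41 ± 0.34 (SE, adjusted p = 0.0204), Irf8 by -1.11 ± 0.20 (SE, adjusted p = 0.00848) and Sparc by 2.87 ± 0.62 (SE, adjusted p = 0.0142). For Gap43 the change was 0.62 ± 0.90 (SE, adjusted p = 0.699), and the difference of the 2 changes did not pass the threshold (4.41 ± 1.33 (SE, adjusted p = 0.73)). The Schwann cell identity list had 10 of 22 genes called higher after delayed repair with a median of 2.87, against 2 of 22 and 0.76 after immediate repair, and the myelin list 11 of 18 with 2.70, against 0 of 15 and 0.37. The difference of the day effect between immediate and delayed repair was called for 0 of 10923 genes (0%), with 524 at an unadjusted p under 0.05 (4.80%), 0 by limma-voom and 9 by DESeq2, so these list medians are given side by side only.

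The course in macrophages of the immediate group was read beside that of the sorted fraction. In 8 libraries of each day 964 of 8507 genes were called (11.3%), 453 higher (5.33%) and 511 lower (6.01%). Of the genes called in the sorted fraction, 29 of 46 higher and 154 of 274 lower genes had the same sign in macrophages, with medians of 0.07 and -0.06, against 51.8% with the same sign over all genes tested in both. The day effect itself was compared between the fractions in 15 animals that gave both, with the animal as a block, and differed for 302 of 10436 genes (2.89%), of which 66 were higher (0.632%) and 236 lower (2.26%) in the sorted fraction relative to macrophages. MHC class II genes were among them. Cd74 rose in macrophages by 2.02 ± 0.19 (SE, adjusted p = 5.11e-06) and the difference was -2.00 ± 0.24 (SE, adjusted p = 0.000571), and for H2-Ab1, H2-Aa and H2-Eb1, which encode class II chains, the differences were -2.10 ± 0.26 (SE, adjusted p = 0.000816), -2.43 ± 0.31 (SE, adjusted p = 0.000816) and -2.46 ± 0.33 (SE, adjusted p = 0.00121). Of 32 antigen presentation genes 7 differed in this direction and none in the other, and 1 of the 7, Ciita, the activator of class II genes, passed the filter on low values only through the sorted fraction.

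Further genes differed in their day effect between the fractions. Plxnc1, a receptor for semaphorin 7A, fell by -1.01 on the log2 scale in the sorted fraction and rose in macrophages, 1.03 ± 0.20 (SE, adjusted p = 0.00216), with a difference of -2.02 ± 0.36 (SE, adjusted p = 0.00753). Wdr91, a regulator of endosome maturation, and Traf3 differed by -1.65 ± 0.20 (SE, adjusted p = 0.000571) and -1.41 ± 0.23 (SE, adjusted p = 0.00475). In the opposite direction, Il1b, the inflammasome cytokine, singled out after its values were seen, fell in macrophages, -1.33 ± 0.17 (SE, adjusted p = 8.54e-05), and was at 673, 1195 and 1808 CPM on day 5 and 780.2, 1912 and 2326 CPM on day 14 in the sorted fraction, with overlap. The difference was 1.90 ± 0.36 (SE, adjusted p = 0.0109), and that of Cxcl10, an interferon-induced chemokine, 2.23 ± 0.41 (SE, adjusted p = 0.00842). Atp5o and Cycs differed by 1.04 ± 0.18 (SE, adjusted p = 0.00715) and 0.82 ± 0.15 (SE, adjusted p = 0.00753). Mxd1, Osm, Ddit4 and Tnfaip3 fell in both fractions, in macrophages by -1.08 (adjusted p = 0.000548), -1.29 (adjusted p = 3.83e-05), -1.85 (adjusted p = 0.00535) and -0.89 (adjusted p = 0.000206), and their differences did not pass the threshold.

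**Figure D5:**
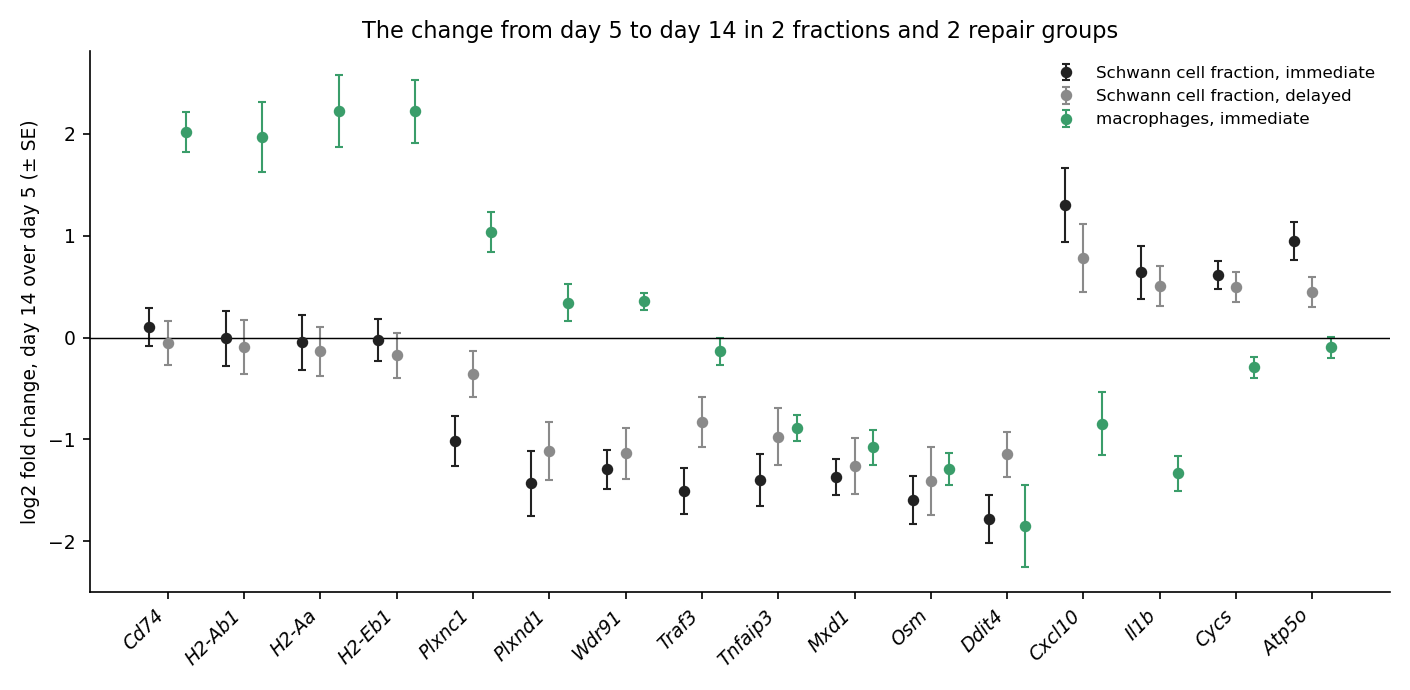
Log2 fold change of day 14 over day 5 with its standard error for 16 genes in the sorted fraction after immediate repair (black), in the sorted fraction after delayed repair (grey) and in macrophages after immediate repair (green). The MHC class II genes lie near 0 in both sorted fractions and near 2 in macrophages, while Mxd1, Osm, Ddit4 and Tnfaip3 lie below 0 in all courses.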

How the data were processed

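The authors deposited estimated counts per gene for 23361 genes, neither normalized nor filtered, in which 0.945% of the values of the 15 libraries were not whole, and these were rounded. Per the submitters' processing notes, reads were trimmed with cutadapt 1.8 and aligned with TopHat2 2.1.1 to mm10, and Cuffnorm and Cufflinks 2.2.1 were used, but the program that wrote the counts is not given in the sources used here. Libraries came from amplified cDNA without molecular identifiers. The totals of 14400772 to 30322482 counts therefore bear on the counting error of reads only, and do not show error that arose before sequencing. Every column matched a sample by its title.

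Genes that reached 5 CPM in 6 or more animals were tested by edgeR 4.0.16 (R 4.3.3, quasi-likelihood F test) after TMM scaling and without covariates. Calls needed a p below 0.05 after Benjamini-Hochberg adjustment over all genes tested. The study's own tool needs aligned reads. Standard errors were derived as log2 fold change over the root of the F statistic. The paired test of both fractions used 30 libraries of 15 animals, and totals were compared with SciPy 1.17.1. Marker sums are in CPM of the library total and gene levels in CPM after TMM scaling. Alternatives used DESeq2 1.42.0, limma 3.58.1 with voom quality weights, other filters and scaling, sex, the replicate number, each sex alone, a joint fit of all 4 Schwann cell groups, and fits without each library in turn. The main comparison and the paired test were also run on simulated counts with known changes, and the outcome is not given here.

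The samples, the 34 process lists and the 24 marker lists, written by hand, were chosen with earlier results of these data known. Named genes were the 12 with the smallest p and the 12 with the largest fold change in each direction among called genes with a mean of at least 20 CPM in the higher group, up to 4 of each process list, sorting markers, Schwann and dendritic cell markers, and up to 5 per interaction and direction. Members of a short count are named as well. Coordinates are from GENCODE annotation of GRCm38, and promoters were matched by symbol to RefSeq (GRCm38.p6) for 53 of 72 higher, 239 of 310 lower and 7566 of 10016 tested genes. Each sample is a separate animal. The groups share no animal, and day of collection cannot be told apart from any batch that goes with it.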

Additional observations from a re-analysis of the deposited data

Results flagged for a closer look

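Among 86 groups of libraries examined (37 genes, 5 marker sums and the total count on each day), 6 held a library whose gap to the next exceeded Dixon's limit at 95%, which chance does in about 1 group in 20. The gap was taken as a share of the range, on log2(CPM + 1) for genes and marker sums and on plain totals. On day 5, replicate 3 was lowest for Sema4f at 0.242 CPM, with the next library at 9.56 CPM, and for Postn at 2.95 CPM, with the next at 70.2 CPM, and replicate 2 was lowest for S100b at 0.706 CPM, with the next at 7.99 CPM. Both libraries are among the 3 with the lowest Schwann cell marker sums. On day 14, replicate 5 was highest for Hopx at 31.1 CPM and for Cxcl16 at 1224 CPM, with the next libraries at 17.9 and 760.5 CPM, and replicate 6 for Irf4 at 98.6 CPM, with the next at 42.3 CPM. Hopx kept its call in each fit that left out 1 library, as did Cxcl16 and Irf4.

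The day effect differed between the sorted fraction and macrophages, by the interaction test of edgeR with the animal as a block, for 38 of the genes examined singly. The log2 differences below 0, in the sense of sorted fraction minus macrophages, were -7.92 for Scd1, -3.28 for Phlpp1, -3.20 for Myo10, -2.70 for Ciita, -2.46 for H2-Eb1, -2.43 for H2-Aa, -2.42 for Irf4, -2.32 for Gdap10, -2.31 for Cd200, -2.28 for Ranbp2, -2.27 for Nr4a3, -2.10 for H2-Ab1, -2.05 for Blnk, -2.02 for Plxnc1, -2.00 for Cd74, -1.86 for Eng, -1.83 for Plxnd1, -1.80 for Pik3r1, -1.65 for Wdr91, -1.41 for Cxcr4, -1.41 for Traf3, -1.24 for Cxcl16, -1.24 for Irf8, -0.92 for Fabp5 and -0.74 for Ifrd1. Scd1, Ciita and Nr4a3 passed the filter on low values only through the sorted fraction, so the sizes of their fitted differences are uncertain. Those above 0 were 3.59 for Cd109, 2.56 for Ccl2, 2.55 for Tppp3, 2.44 for Lif, 2.23 for Cxcl10, 1.90 for Il1b, 1.85 for Adk, 1.60 for Hmox1, 1.21 for Glipr1, 1.04 for Atp5o, 0.999 for Higd1a, 0.82 for Cycs and 0.81 for Cope. Of these calls, 29 were kept in each of the 15 fits that left out the libraries of 1 animal, and the others were kept in fewer (Cd109 in 7, Fabp5 in 3, Eng in 12, Cxcr4 in 12, Irf8 in 4, Irf4 in 3, Ccl2 in 8, Lif in 7 and Hmox1 in 7). Myo10, an unconventional myosin, rose in macrophages by 1.79 (adjusted p = 0.000456) and changed in the sorted fraction by -1.52 (adjusted p = 0.00539), and Phlpp1, a phosphatase of Akt, by 1.92 (adjusted p = 9.38e-06) and -1.47 (adjusted p = 0.0128).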

How the results depend on the processing

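In the sorted fraction after immediate repair, where 382 genes were called, the count was 950 with DESeq2, 612 with limma-voom, 801 with all 4 Schwann cell groups in one fit, 195 in males, 0 in females, 42 without day 5 replicates 2, 3 and 4 (added after seeing the data), 66 at an adjusted p under 0.01 and 1859 at an unadjusted p under 0.05. Leaving out 1 library gave 222 (without day 5 replicate 2) to 638 (without day 5 replicate 5), and 226 to 235 without day 5 replicate 3 or day 14 replicate 2, 7 or 8. Library size scaling gave 350, other filters 339 to 366 and sex as a covariate 340. After delayed repair (806) it was 1514 with DESeq2, 86 in males, 23 in females and 359 to 1175 over libraries left out. In macrophages (964) it was 1484 with library size scaling, 496 in males and 105 in females. For the difference between fractions (302) it was 1088 with DESeq2, 540 with limma-voom, 200 without a filter, 550 without the animal block and 169 to 391 over animals left out (172, 201, 194 and 192 without the animal of day 5 replicate 2 or 3 or of day 14 replicate 2 or 3). For the difference between repair groups DESeq2 called 9, and for that between the sexes 14, with 0 to 32 over libraries left out (32 without day 5 replicate 2). The cause of these shifts was not tested, apart from the fewer animals or the other threshold where the setting sets them.

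The replicate numbers do not pair the animals. Of the 7 shared numbers, deviations from the group means correlated between -0.05 and 0.19, 4 were above 0.1, 2 libraries correlated best with their own number and 0 were from the same animal. With the replicate block 197 genes were called after immediate repair and 241 after delayed repair. Of the 144 changes and differences of single genes that were refitted, 0 reversed under the settings in which they could be tested. Their choice on the same libraries largely fixes the sign. In 684 of these refits a call was lost. Among called genes of the sorted fraction, the call was lost for 87 of 87 in females alone and 44 of 96 with the replicate block. Without day 5 replicates 2, 3 and 4 it was lost for 73 of 95. The difference in total counts lay between -5819417 and -4091958 over libraries left out. Totals of at least 14400772 counts leave the counting error of reads small for genes above 5 CPM, which says nothing of error before sequencing.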
